A study of Mus musculus with 10 samples.

Results

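The SOCS (suppressor of cytokine signalling) family and a pair of related restraints on cytokine signalling were examined in tumour-associated macrophages 24 h after an antibody against MerTK. The genes, picked by name and not by a cut on their values, are Socs1 to Socs7, Cish, Pias1 and Ptpn2. They were picked with earlier results of these data known. They are 10 of the 36528 gene identifiers in the deposited files, all 10 were found by symbol, and all 10 passed the filter on low counts. The 2 groups compared were macrophages purified from MC-38 tumours, a colon carcinoma line grown in C57Bl/6 mice. The mice had received anti-MerTK or the comparison antibody anti-gp120, which is directed at a viral envelope protein, with 5 polyadenylated RNA libraries for each. Whether each library is 1 mouse or a pool, and which surface markers served for purification, is not stated in the labels. P-values therefore measure the spread between these libraries, which may be technical.

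Cytokine receptors without kinase activity of their own signal through Janus kinases (JAKs), which phosphorylate STAT transcription factors. STATs switch on SOCS genes, whose proteins bind the receptor or the kinase through an SH2 domain and recruit a ubiquitin ligase through a SOCS box, so that the signal limits itself. In macrophages SOCS1 is best known as a brake on interferon signalling, and SOCS3 as a brake on receptors that use the gp130 chain, such as that for interleukin 6. PIAS1 and PTPN2 act on the same pathway by other means, as a SUMO ligase that restrains STATs and as a phosphatase of JAKs and STATs.

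The libraries held 33159858 to 46108687 counted reads. Macrophage markers summed to 25285 to 27448 CPM (TMM-scaled read counts, relative to library size) after anti-MerTK and 23163 to 28506 CPM after anti-gp120. Of these 10 markers 1 passed the test as higher and 0 as lower. Markers of T cells and NK cells stayed near 0, with sums of 3.27 to 13.5 and 0.401 to 1.05 CPM after anti-MerTK, and 8.57 to 15.5 and 0.153 to 1.68 CPM after anti-gp120. Most of the T cell sum came from Cd4, and each of the CD3 genes Cd3d, Cd3e and Cd3g averaged under 1 CPM in both groups. Monocyte markers stood higher after treatment: 9 of 9 estimates were positive and 2 (Plac8 and Ms4a4c) passed the test. The sum of the 9 was 1040 to 1457 CPM after anti-MerTK and 525 to 826 CPM after anti-gp120. Ms4a4c was the largest part of that sum, averaging 730 CPM after anti-MerTK and 329 CPM after anti-gp120. Chil3 was nearly level, at 1.36 and 1.34 CPM. Epithelial markers, nearly all of them Cdh1, summed to 25.8 to 34.2 CPM after anti-MerTK and 36.0 to 59.9 CPM after anti-gp120. The 1 gene of that list with enough counts to be tested passed as lower (log2 fold change -0.72). The sums of the neutrophil, B cell, dendritic cell, fibroblast and endothelial lists overlapped between the groups. Mertk itself averaged 78.9 ± 4.96 CPM after anti-MerTK and 91.1 ± 14.3 CPM after anti-gp120 (mean and SD, n = 5 each), a log2 fold change of -0.21 that did not pass (edgeR adjusted p = 0.263).

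None of the 10 genes passed the test of a difference between the groups. In edgeR's quasi-likelihood test, adjusted over all 13588 genes tested, 0 of 10 were higher and 0 were lower, where 3.22% of all tested genes were called, 1.85% as higher and 1.38% as lower. The count was also 0 with DESeq2 and with limma-voom, and 1 member, Socs6, had an unadjusted p under 0.05, as did 20.9% of all tested genes. The 10 log2 fold changes ran from -0.60 for Socs2 to 0.41 for Socs1, with a median of -0.06 beside -0.01 over all tested genes. For every one of the 10 the values of the groups overlapped, and 5.97% of all tested genes had groups that did not overlap. At shares this small, counts of 0 among 10 genes do not set the members apart from all tested genes. In the same libraries all 18 genes of an interferon-stimulated list were higher after anti-MerTK, with a median log2 fold change of 1.30. That list was taken with its rise known, so its count is a description and no test.

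**Figure D1:**
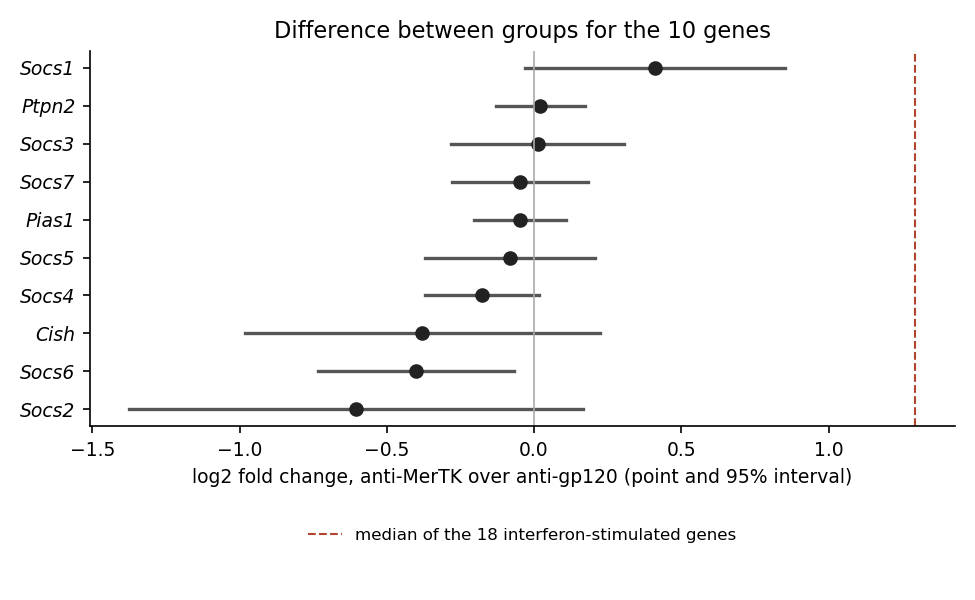
Log2 fold change of each of the 10 genes, anti-MerTK over anti-gp120, with its 95% interval from edgeR (5 libraries per group), and a dashed line at 1.30, the median of 18 interferon-stimulated genes. The intervals of 9 genes span 0, that of Socs6 (unadjusted) lies below 0, and none reaches the dashed line. The list behind that line was taken with its rise known.

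The levels of the family spanned a wide range. On the deposited RPKM scale, which allows for gene length, Socs3 was the most abundant, at 175 ± 22.5 after anti-MerTK and 173 ± 34.6 after anti-gp120 (mean and SD, n = 5 each), above 96.9% of the tested genes. Socs1 came next at 46.5 ± 11.7 RPKM after anti-MerTK and 34.9 ± 9.24 after anti-gp120. Socs6, Cish, Pias1 and Socs4 followed between 6.46 and 9.57 RPKM after anti-MerTK and between 7.29 and 12.6 after anti-gp120, and each overlapped the next in this order across the 10 libraries. Ptpn2, Socs7 and Socs5 lay below them at 4.81, 3.14 and 1.71 RPKM after anti-MerTK and 4.74, 3.24 and 1.80 after anti-gp120, without overlap between neighbours. Socs2, whose protein is best known for limiting growth hormone signalling, was barely expressed, at 0.152 ± 0.0674 RPKM after anti-MerTK and 0.231 ± 0.0878 after anti-gp120. The sharp steps in the order were those from Socs3 to Socs1, from Socs1 to Socs6 and from Socs5 to Socs2.

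**Figure D2:**
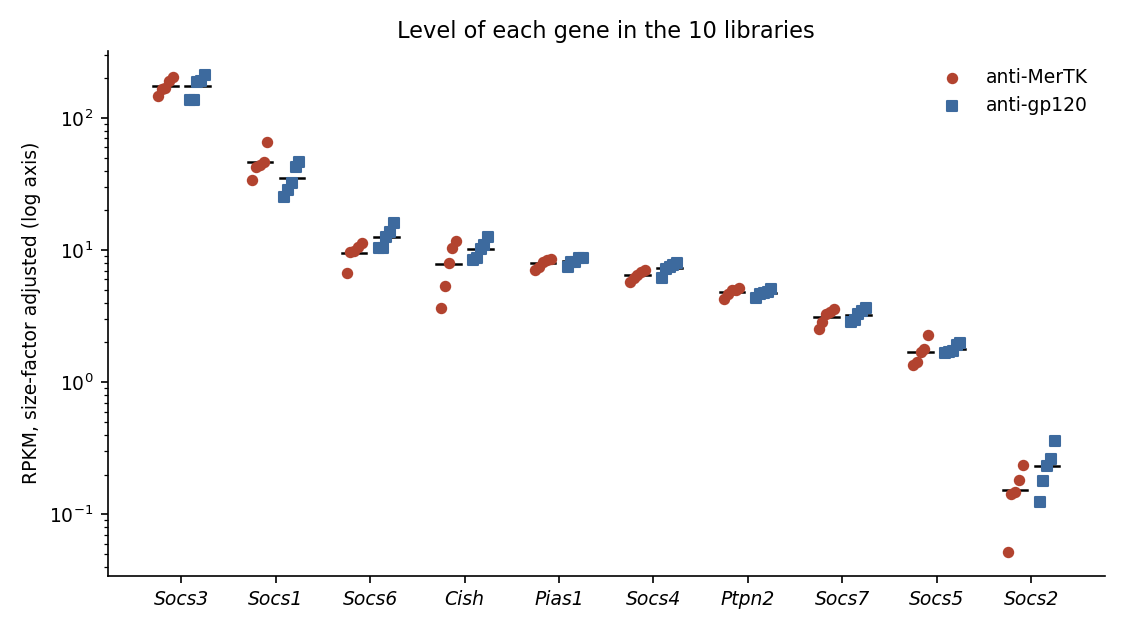
Deposited RPKM (log axis) of each gene in each of the 10 libraries, with a bar at each group's mean. Socs3 lies between 137 and 213 in every library, Socs2 lies below 0.357, and the groups overlap for every gene.

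Socs1, the interferon-induced inhibitor of JAK1, JAK2 and TYK2 (Entrez 12703, GRCm38 chromosome 16, 10783808 to 10785536), had the highest estimate of the 10. It gave 58.3, 87.7, 56.6, 62.8 and 44.8 CPM in anti-MerTK replicates 1 to 5, against 62.3, 34.0, 42.4, 37.8 and 56.5 CPM in anti-gp120 replicates 1 to 5. Of the anti-MerTK libraries, 4 lay above the anti-gp120 mean, but only replicates 2 and 4 lay above every anti-gp120 library, and anti-gp120 replicate 1 lay above the other 3 treated ones. The log2 fold change was 0.41 (SE 0.20, 95% interval -0.03 to 0.85, a fold of 0.980 to 1.81; edgeR adjusted p = 0.266). Without anti-MerTK replicate 2, the highest library, it was 0.26. Monocyte markers were higher after anti-MerTK as given above. Socs1 with the mean log2 CPM of the 9 monocyte genes was 1 of 30 relations computed after the values had been seen. It did not pass, with Pearson r = 0.38 (permutation p = 0.282, adjusted 0.408) and Spearman rho = 0.53 (permutation p = 0.124, adjusted 0.364). The r was -0.00729 after centring on the group means. It was 0.69 without anti-MerTK replicates 1 and 5, farthest from that list's median (exact permutation p = 0.0544). A part of monocytes in the values of Socs1 was not tested. In such bulk libraries more cells of a type and more RNA per cell cannot be told apart.

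The stretch before the start of Socs1 is shown because it holds the core of the interferon-stimulated response element, as does that of Isg15, a ubiquitin-like gene that is a standard reporter of interferon. The motif searched was GAAANNGAAA on both strands, in RefSeq windows from 250 bases before to 50 after a gene's start (GRCm38.p6). Capitals mark the matches, which overlap each other within each gene. Both stretches are on the minus strand and run 5′ to 3′ up to the base before the start.
Socs1, chr16:10785537-10785786: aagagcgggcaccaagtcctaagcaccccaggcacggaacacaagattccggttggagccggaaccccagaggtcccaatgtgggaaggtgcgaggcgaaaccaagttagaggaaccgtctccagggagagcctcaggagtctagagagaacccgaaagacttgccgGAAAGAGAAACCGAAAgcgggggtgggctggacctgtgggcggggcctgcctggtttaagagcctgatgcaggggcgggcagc
Isg15, chr4:156200819-156201068: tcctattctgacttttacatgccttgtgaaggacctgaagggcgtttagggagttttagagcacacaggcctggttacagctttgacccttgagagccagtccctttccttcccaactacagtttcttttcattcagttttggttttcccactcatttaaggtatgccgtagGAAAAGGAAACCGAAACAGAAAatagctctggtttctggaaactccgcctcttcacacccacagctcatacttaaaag

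Both stretches hold the match GAAACCGAAA, which begins at position -77 from the start in Socs1 and at -72 in Isg15. Socs1 had 2 matches and Isg15 had 3. The motif was in 3.44% of all 32851 promoter windows, in 1 of the 5 windows available for the members (Socs1) and in 6 of 14 windows of the interferon-stimulated list, which covered 13 of its 18 genes. Isg15 averaged 473 ± 87.4 CPM after anti-MerTK and 159 ± 40.0 CPM after anti-gp120 (mean and SD, n = 5 each; log2 fold change 1.57, SE 0.18, edgeR adjusted p = 0.00441). For Socs1 the estimate was 0.41, and its interval ended at 0.85, below the lower bound of 1.19 for Isg15. Other list genes had lower bounds under 0.85, such as 0.42 for Ifi44 and 0.51 for Zbp1, so their intervals overlapped that of Socs1. Isg15 had the smallest unadjusted p of the 18 list genes, taken with their rise known, so its comparison with Socs1 is a description and no test. A match is a description of the letters and not evidence of binding.

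Socs1 was set beside the interferon-stimulated genes library by library. The mean log2 CPM of the 18 list genes was 7.55, 8.06, 7.44, 7.56 and 7.25 in anti-MerTK replicates 1 to 5, where Socs1 had log2 CPM values of 5.87, 6.45, 5.82, 5.97 and 5.49. In anti-gp120 replicates 1 to 5 the list stood at 6.47, 5.84, 6.23, 6.27 and 6.71, where Socs1 had 5.96, 5.09, 5.41, 5.24 and 5.82. The order of the anti-MerTK libraries was the same for Socs1 and for the list, and in the anti-gp120 group replicates 1 and 5 were the highest and replicate 2 the lowest for both.

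The distance between Socs1 and the list is given as a description, with no test, because the list was taken with its rise known and any gene that did not follow it would stand lower against it. Socs1 minus the list was -1.65 ± 0.0687 after anti-MerTK and -0.80 ± 0.191 after anti-gp120 (mean and SD, n = 5 each). The list itself averaged 7.57 ± 0.303 after anti-MerTK and 6.30 ± 0.320 after anti-gp120, on the same log2 scale.

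**Figure D3:**
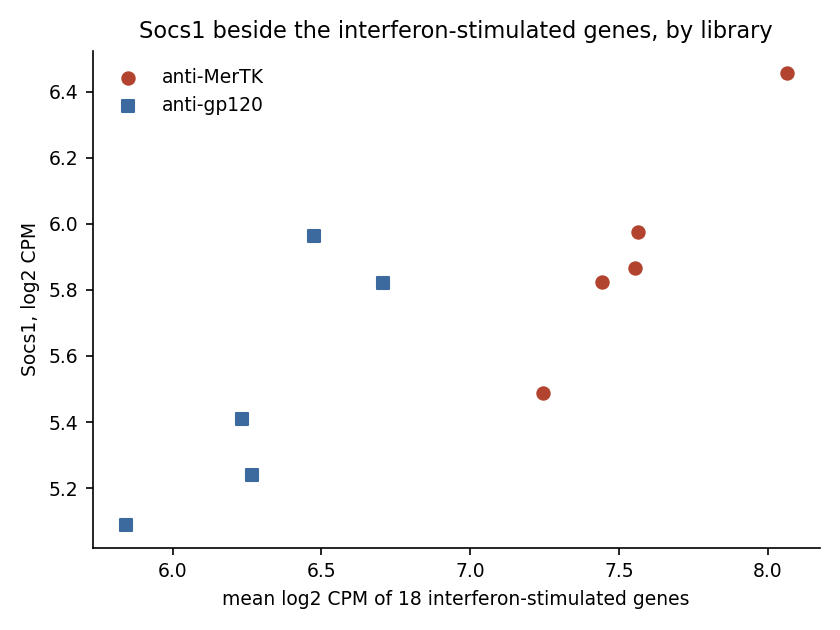
Log2 CPM of Socs1 (y axis) against the mean log2 CPM of 18 interferon-stimulated genes (x axis) in each library. The anti-MerTK libraries, at 7.25 to 8.06 on the x axis, have Socs1 between 5.49 and 6.45, which overlaps the 5.09 to 5.96 of the anti-gp120 libraries at 5.84 to 6.71.

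Socs3, the inhibitor of gp130 and of the receptor for G-CSF (Entrez 12702, chromosome 11, 117966079 to 117970336), was the best measured of the family, with 17921 to 32464 reads in a library. It gave 605, 686, 591, 736 and 524 CPM in anti-MerTK replicates 1 to 5, against 492, 499, 672, 686 and 765 CPM in anti-gp120 replicates 1 to 5. The anti-gp120 libraries fell both lower and higher than all the treated ones. The log2 fold change was 0.01 (SE 0.14, edgeR adjusted p = 0.969), with a 95% interval from -0.28 to 0.31, so that folds between 0.823 and 1.24 lie within it. Of 30 relations between 5 members and the mean log2 CPM of a marker list, computed after the values had been seen, that of Socs3 with 6 fibroblast genes passed on both measures, with Pearson r = -0.86 (permutation p = 0.0015, adjusted over the 30 0.045) and Spearman rho = -0.87 (permutation p = 0.00208, adjusted 0.04095) over 10 libraries. The r was -0.86 after centring on the group means and -0.83 without anti-MerTK replicate 5 and anti-gp120 replicate 2, the libraries farthest from the median of the list (exact permutation p = 0.0116). Cish with the macrophage list passed on rank alone, with rho = 0.85 (permutation p = 0.00273, adjusted 0.04095) but r = 0.44 (permutation p = 0.211, adjusted 0.391), and r was 0.63 without anti-gp120 replicates 1 and 4, the libraries farthest from that list's median (exact permutation p = 0.0693). Fibroblast markers summed to 6.39 to 42.4 CPM after anti-MerTK and 7.66 to 31.0 CPM after anti-gp120, and their part in the values of Socs3 was not tested.

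Cish, which is induced by STAT5 downstream of growth factor cytokines (Entrez 12700, chromosome 9, 107296659 to 107302784), had 18.4, 12.6, 27.4, 40.1 and 35.4 CPM in anti-MerTK replicates 1 to 5, against 28.9, 35.2, 37.5, 42.8 and 30.02 CPM in anti-gp120 replicates 1 to 5. Anti-MerTK replicates 1, 2 and 3 lay below every anti-gp120 library, while replicates 4 and 5 lay among them. The spread after anti-MerTK, an SD of 11.5 CPM, was wider than that after anti-gp120, 5.67 CPM. The log2 fold change was -0.38 (SE 0.27, 95% interval -0.98 to 0.22; edgeR adjusted p = 0.457), and it was -0.20 without anti-MerTK replicate 2.

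STAT dimers bind palindromes of the form TTCNNNGAA, and the stretches that hold this motif in the windows of Socs3 and Cish are shown, with the matches in capitals. The Socs3 stretch ends at the base before the start in RefSeq's promoter table, which lies within the gene span given above. The Cish stretch spans the start, which is its first capital.
Socs3, chr11:117969367-117969616, minus strand: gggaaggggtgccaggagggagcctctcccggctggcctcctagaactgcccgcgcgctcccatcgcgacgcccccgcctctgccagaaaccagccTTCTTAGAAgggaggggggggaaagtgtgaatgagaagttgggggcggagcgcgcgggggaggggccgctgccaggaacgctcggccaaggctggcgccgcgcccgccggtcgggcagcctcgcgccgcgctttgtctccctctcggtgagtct
Cish, chr9:107296655-107296684, plus strand: agttTTCCTGGAAagTTCTTGGAAatctgt

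Socs3 had 1 match, beginning at position -154 from the start, and Cish had 2, beginning at bases 1 and 12 of the gene. The windows of Socs1, Socs4 and Pias1 held no match of these letters, and 8.30% of all promoter windows held one, as did 2 of the 14 windows of the interferon-stimulated list. The motif is the same read on either strand. Neither member with a match passed the test, as given above.

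Socs2 (Entrez 216233, chromosome 10, 95383903 to 95417321) rested on 15 to 134 reads in a library. It gave 1.26, 0.463, 1.31, 1.63 and 2.09 CPM in anti-MerTK replicates 1 to 5, against 2.33, 3.22, 1.59, 2.06 and 1.10 CPM in anti-gp120 replicates 1 to 5. The lowest value was in anti-MerTK replicate 2, and the other treated libraries lay within the range of the anti-gp120 group. Its log2 fold change of -0.60 (SE 0.35, edgeR adjusted p = 0.350) had the widest interval of the 10, from -1.37 to 0.17.

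Socs6, an adaptor that binds activated receptor tyrosine kinases such as KIT (Entrez 54607, chromosome 18, 88865169 to 88894364), came closest to the threshold. It gave 58.2, 40.8, 59.3, 68.8 and 63.4 CPM in anti-MerTK replicates 1 to 5, against 63.3, 84.2, 75.9, 97.7 and 62.6 CPM in anti-gp120 replicates 1 to 5. All 5 anti-MerTK libraries lay below the anti-gp120 mean of 76.7 CPM, 3 of them below every anti-gp120 library. The log2 fold change was -0.40 (SE 0.15, edgeR adjusted p = 0.161), with a 95% interval of -0.73 to -0.07 before any adjustment for the number of genes. DESeq2 gave the smallest adjusted p of any setting, 0.0820.

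Socs4 and Socs5, close relatives reported to act on the EGF receptor, had log2 fold changes of -0.18 (95% interval -0.37 to 0.02) and -0.08 (-0.37 to 0.21). Socs4 ran from 12.2 to 15.2 CPM after anti-MerTK and from 13.2 to 17.2 CPM after anti-gp120, and all 5 treated libraries lay below the anti-gp120 mean. Socs5 ran from 7.36 to 12.3 CPM after anti-MerTK and from 9.03 to 10.9 CPM after anti-gp120. Socs7, linked to insulin signalling, ran from 18.8 to 26.7 CPM after anti-MerTK and from 20.9 to 27.2 CPM after anti-gp120, with a log2 fold change of -0.05. The edgeR adjusted p of these 3 genes lay between 0.276 and 0.832.

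The 2 members outside the SOCS family were the most tightly bounded. Ptpn2, the phosphatase also called TC-PTP (Entrez 19255, chromosome 18, 67665501 to 67724632), averaged 40.3 ± 3.24 CPM after anti-MerTK and 39.7 ± 1.97 CPM after anti-gp120 (mean and SD, n = 5 each). Its log2 fold change was 0.02, with a 95% interval from -0.13 to 0.17, which spans folds of 0.914 to 1.13. Pias1 (Entrez 56469, chromosome 9, 62878366 to 62980879) averaged 46.2 ± 3.86 CPM after anti-MerTK and 47.8 ± 2.87 CPM after anti-gp120 (mean and SD, n = 5 each), a log2 fold change of -0.05 with an interval from -0.20 to 0.11. Neither passed (edgeR adjusted p = 0.888 for Ptpn2 and 0.735 for Pias1).

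Some of the members varied together across the libraries. Of the 45 pairs, Socs6 and Cish had Pearson r = 0.87 (permutation p = 0.00024, adjusted over the 45 pairs 0.0108) and Spearman rho = 0.90 (permutation p = 0.00093, adjusted 0.0418) over 10 libraries. The r was 0.84 after each value was centred on its group mean, and 0.66 without anti-MerTK replicate 2 and anti-gp120 replicate 4, the 2 libraries farthest from the median of Socs6 (exact permutation p = 0.0729), so that the relation rests in part on those libraries. Socs1 ran against Socs6, with r = -0.89 (permutation p = 0.00107, adjusted 0.0241) and rho = -0.73 (permutation p = 0.0203, adjusted 0.273). That r was -0.84 after centring and -0.76 without anti-MerTK replicate 2 and anti-gp120 replicate 2, the libraries farthest out for Socs1 (exact permutation p = 0.0195). No other pair passed on r, and none but Socs6 with Cish passed on both measures. Anti-MerTK replicate 2 had the highest Socs1 and the lowest Socs6, Cish and Socs2 of all 10 libraries.

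**Figure D4:**
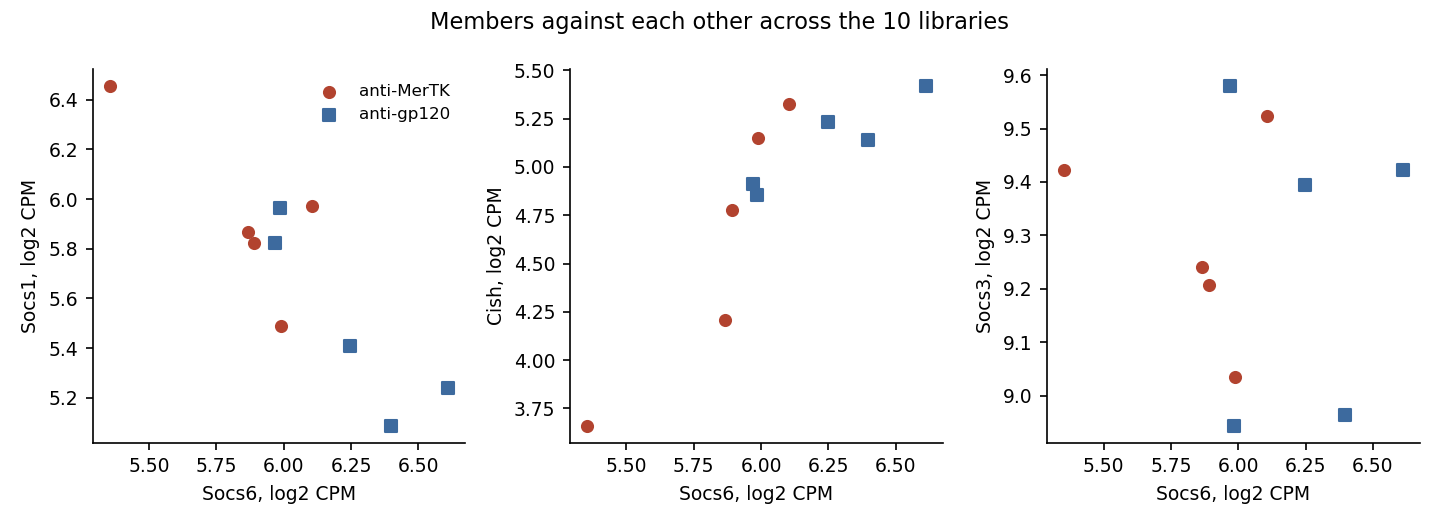
Log2 CPM of Socs1, Cish and Socs3 (y axes) against that of Socs6 (x axes) in the 10 libraries. Socs1 is lower and Cish higher where Socs6 is higher (r = -0.89 and 0.87), anti-MerTK replicate 2 stands at the far left of each panel, and Socs3 shows no such relation (r = -0.09).

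The tested genes most like these members over the 10 libraries were found by Pearson r of log2 CPM among genes whose mean log2 CPM reached 1. They were chosen for their likeness out of 10222 or 10223 genes, so no test is given. For Socs1 they were Il12rb1, Klf11 and Lrrc4 (r = 0.97, 0.96 and 0.96), and for Cish they were Tspan13, Ramp1 and Clec7a (r = 0.98, 0.97 and 0.97). Socs3 was closest to Abhd6, Plbd1 and Vasp (r = 0.97, 0.95 and 0.95), and Socs2 to Uck2, Pde3b and Mrc1 (r = 0.95, 0.95 and 0.95). None of these 12 genes passed the test between the groups, with edgeR adjusted p from 0.189 to 0.849.

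Other restraints on the same pathway did include changed genes. Of 12 further negative regulators, all tested, 1 was higher (Usp18) and 1 lower (Cbl), 16.7% of the list beside 3.22% of all tested genes, and the list's median log2 fold change was -0.03. Usp18, which removes ISG15 from proteins and blocks JAK1 at the type I interferon receptor, gave 196 to 365 CPM after anti-MerTK and 71.9 to 136 CPM after anti-gp120, without overlap. Its log2 fold change was 1.31 (SE 0.19, edgeR adjusted p = 0.0114), and it passed with each library left out. Usp18 also stands in the interferon-stimulated list. This list of regulators, like those below, was drawn up with earlier results of these data known. Its share beside that of all tested genes is therefore a description and no test. Cbl, a ubiquitin ligase for activated tyrosine kinases, gave 58.7 to 66.5 CPM after anti-MerTK and 73.3 to 115 CPM after anti-gp120 (log2 fold change -0.53, SE 0.12, edgeR adjusted p = 0.0337). Cbl did not pass without anti-MerTK replicates 1, 2, 3 or 4 or anti-gp120 replicates 2 or 4 (adjusted p = 0.0573 to 0.0937), nor in 8 libraries without anti-MerTK replicates 2 and 5 (0.130). Among the other PIAS genes, Pias2 had a log2 fold change of -0.20 and Pias4 of 0.26, and neither passed (edgeR adjusted p = 0.102 and 0.140).

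Of 7 genes for the Elongin, Cullin 5 and partner subunits of the ligase that SOCS boxes recruit, 0 passed in edgeR, where 3.22% of all tested genes did. In the same list 1 gene (Cul5) had an unadjusted p under 0.05, as did 20.9% of all tested genes, and log2 fold changes ran from -0.23 for Arih2 to 0.14 for Elob. DESeq2 and limma-voom also called 0 genes of this list.

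Upstream of the family, most of the signalling chain did not pass either. Of 12 JAK, STAT and Irf9 genes 1 was higher, Stat2, a transcription factor of the type I interferon response, at 59.3 to 205 CPM after anti-MerTK and 38.8 to 67.8 CPM after anti-gp120 (log2 fold change 1.19, SE 0.27, edgeR adjusted p = 0.0452). This count is 8.33% of the list, beside 3.22% of all tested genes called and 1.85% called higher. Stat2 did not pass without any 1 of anti-MerTK replicates 1 to 4 or anti-gp120 replicates 1 to 4 (adjusted p = 0.0598 to 0.126), and passed in 8 libraries (0.00733). Irf9, which carries STAT2 to DNA, stood at 0.31 (log2 fold change, SE 0.08) with an edgeR adjusted p of 0.0541. It passed without anti-MerTK replicate 5 (0.0459) and without anti-gp120 replicate 5 (0.0381). With any other single library left out it did not pass (edgeR adjusted p = 0.0641 to 0.155), nor in 8 libraries (0.143). Irf9 passed with DESeq2 (adjusted p = 0.00873), with limma-voom (0.0242) and under the filter of 5 CPM in 5 libraries (0.0398). It did not pass with no filter (edgeR adjusted p = 0.0634) or under the 3 other scalings (0.0536 to 0.0573). Jak1 and Stat5b stood at log2 fold changes of -0.15 and 0.14 (edgeR adjusted p = 0.284 and 0.306).

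Of 22 tested cytokine receptor genes, out of 26 listed, 0 were higher and 1 was lower, 4.55% of those tested, near the 3.22% of all tested genes. Estimates were negative for 16 of the 22, and for 6934 of all 13588 tested genes. Not tested for low counts were Epor, Prlr, Lepr and Osmr. The lower gene was Ifngr1, the ligand-binding chain of the interferon gamma receptor, with 160 to 212 CPM after anti-MerTK and 209 to 283 CPM after anti-gp120 (log2 fold change -0.43, SE 0.10, edgeR adjusted p = 0.0449). Ifngr1 did not pass without anti-MerTK replicates 1, 2 or 3 or anti-gp120 replicates 2, 3 or 4 (adjusted p = 0.0764 to 0.128), nor in 8 libraries (0.121). Il6st, which encodes the gp130 chain that SOCS3 binds, stood at -0.27 (log2 fold change, SE 0.08) with groups that did not overlap. It fell short of the threshold in edgeR (adjusted p = 0.0794) and passed with DESeq2 (0.0274) and with limma-voom (0.0361). Those 2 methods called more genes in total than edgeR did. In edgeR Il6st did not pass with any 1 library left out (adjusted p = 0.0563 to 0.210), nor in 8 libraries (0.202). Lifr, a partner of gp130, stood at -0.30, and Csf2rb2, a receptor chain for interleukin 3, at -0.37, and neither passed (edgeR adjusted p = 0.104 and 0.180).

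Of 11 tested cytokine genes, out of 18 listed, 2 were higher and 0 lower, 18.2% of those tested beside 3.22% of all tested genes called and 1.85% called higher. The cytokine list too was drawn up with earlier results of these data known, so its share is a description and no test. Ifng, Il4, Il13, Csf2, Il11, Il23a and Tslp had too few counts to be tested. Ifnb1, interferon beta, was at 1.64 to 2.97 CPM after anti-MerTK and 0.490 to 1.57 CPM after anti-gp120 (log2 fold change 1.29, SE 0.30, edgeR adjusted p = 0.0430). Il15, which supports NK and memory T cells, was at 14.4 to 24.5 CPM after anti-MerTK and 9.41 to 14.5 CPM after anti-gp120 (log2 fold change 0.62, SE 0.15, edgeR adjusted p = 0.0434). Ifnb1 did not pass without anti-MerTK replicates 1 to 4 or anti-gp120 replicates 2 to 5, each left out singly (adjusted p = 0.0588 to 0.116), nor Il15 without anti-MerTK replicates 1 to 4 or anti-gp120 replicates 1 to 4 (0.0633 to 0.118). In 8 libraries neither passed (0.0848 and 0.0660). Il27 and Il7 stood at 0.46 and -0.89 without passing (edgeR adjusted p = 0.0971 and 0.0999).

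Genes linked to STAT3 and STAT6 in macrophages formed the last lists. Of 9 STAT3-linked genes 0 passed in edgeR, 0 had an unadjusted p under 0.05, and the median log2 fold change was 0.01, with Etv3, Bcl3, Nfil3 and Il4ra at -0.16, 0.21, -0.22 and -0.07. Of 9 STAT6-linked genes 0 passed, 2 (Tfec and Arg1) had an unadjusted p under 0.05, the median was 0.39, and estimates ran from -0.93 for Tfec to 1.90 for Retnla. Arg1, arginase 1, ranged from 395 to 1147 CPM after anti-MerTK and from 237 to 682 CPM after anti-gp120 (log2 fold change 0.85, SE 0.36, edgeR adjusted p = 0.211). DESeq2 and limma-voom also called 0 genes of both lists. In the interferon-stimulated list, taken with its rise known, 18 of 18 were higher, with log2 fold changes from 0.86 to 1.63. With 1 library left out, 14 to 18 of the 18 passed, the lowest number without anti-gp120 replicate 4, where Oas3, Oasl2, Zbp1 and Ifi44 did not pass.

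**Figure D5:**
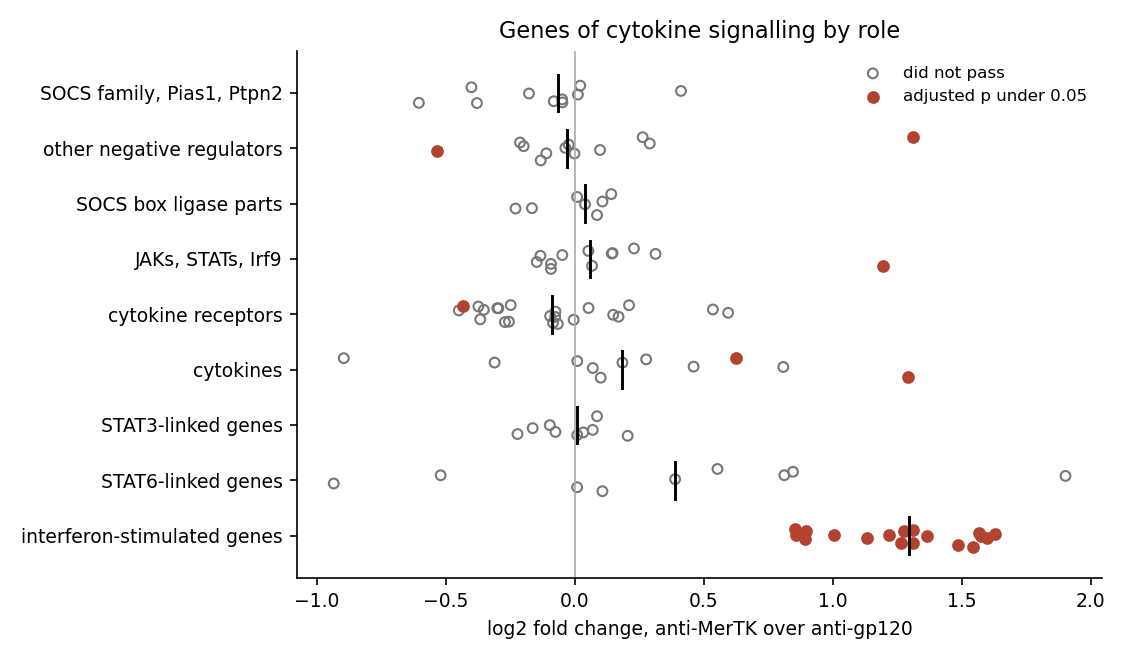
Log2 fold change, anti-MerTK over anti-gp120, of each tested gene by role, with filled points for an edgeR adjusted p under 0.05 and a bar at each list's median. The interferon-stimulated genes, a list taken with its rise known, lie between 0.86 and 1.63 and all are filled. The 10 genes of the SOCS family, Pias1 and Ptpn2 are all open and lie between -0.60 and 0.41.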

How the data were processed

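RNA from purified tumour-associated macrophages was sequenced as 10 libraries, 5 per group. Reads were aligned with GSNAP to GRCm38, per the submitters' processing notes; no version is named there. The authors deposited, per the file headers, counts of uniquely aligned reads per gene model and RPKM adjusted by a size factor per library. Of 36528 identifiers, 31049 were named through RefSeq's gene table; the unnamed ones held 2.14 to 2.66% of counts. No pair of libraries agreed within sampling noise (smallest chi-square per degree of freedom 27.2).

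Counts were tested with edgeR 4.0.16 (TMM, filterByExpr, robust quasi-likelihood, two-sided, Benjamini-Hochberg over 13588 genes, threshold 0.05), after a test on simulated data. CPM are TMM scaled; log2 CPM used a prior count of 2. RPKM served only to compare genes. Alternatives were 3 other scalings, 2 other filters, DESeq2 1.42.0, limma-voom 3.58.1 with quality weights, each library left out, and 8 libraries without anti-MerTK replicates 2 and 5. Correlations used 100000 permutations, or all orders where libraries were left out. Promoters came from RefSeq's table (GRCm38.p6), which held 5 of the 10 genes. Named genes were the members, Mertk, up to 4 genes of smallest p per list with all called ones, and the 3 nearest genes of Socs1, Socs2, Socs3 and Cish. Members, lists, names and the 8-library setting were chosen with earlier results of these data known; the response element motif, the comparison with the interferon list and the correlations (among members and with marker lists) were chosen after seeing the data.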

Additional observations from a re-analysis of the deposited data

How the results depend on the processing

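None of the 10 members passed under any of the 18 alternatives (DESeq2, limma-voom, 3 scalings, 2 filters, 8 libraries and 10 single omissions); Socs2 was not tested under the filter of 5 CPM in 5 libraries. Over 179 values the smallest adjusted p was 0.0820 (Socs6, DESeq2). No scaling turned a member's direction. With each library left out, log2 fold changes ran from -0.064 to 0.10 for Socs3, -0.10 to 0.021 for Socs7 and -0.0076 to 0.062 for Ptpn2, which change sign, and from 0.26 to 0.54 for Socs1, -0.80 to -0.39 for Socs2, -0.23 to -0.13 for Socs4, -0.20 to -0.01 for Socs5, -0.47 to -0.30 for Socs6, -0.57 to -0.20 for Cish and -0.08 to -0.01 for Pias1. In 8 libraries Ptpn2 was -0.033. The cause of these changes of sign was not tested. Over all genes, 601 were higher and 567 lower with DESeq2, 511 and 496 with limma-voom, 152 and 52 in 8 libraries, and 55 to 370 and 15 to 284 with 1 library left out, where fewer libraries were tested. Lower genes among the other negative regulators numbered 2 with DESeq2, 0 in 8 libraries and 0 to 1 with 1 library left out. Higher JAK, STAT and Irf9 genes numbered 0 with no filter, 2 with the 5 CPM filter, DESeq2 or limma-voom, and 0 to 2 with 1 left out. Lower receptors numbered 2 with DESeq2 or limma-voom, 0 in 8 libraries and 0 to 2 with 1 left out. Higher cytokines numbered 3 with DESeq2 or limma-voom, 1 with the 5 CPM filter, where Ifnb1 was not tested, 0 in 8 libraries and 0 to 2 with 1 left out. Of the STAT6-linked genes 1 was lower in 8 libraries. The interferon-stimulated list had 14 to 18 higher with 1 left out. Socs1 minus the interferon-stimulated list differed between the groups by -0.91 to -0.78 with 1 left out, given as a description. With 2 or 4 bases between the TTC and GAA of the STAT motif, 0 members held it. No paired analysis was possible because replicate numbers follow only the order of the samples and pair none of them. Low counts limit Socs2, with 15 reads in 1 library.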
